A study of Homo sapiens with 24 samples.

Results

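The genes described here are 10 members of the interleukin-6 family pathway, 10 of the 59609 named genes in the count table: the cytokines *IL11*, *IL6* and *LIF*, the receptor chains *IL6ST*, *OSMR* and *LIFR*, the kinase *JAK1*, the transcription factor *STAT3*, and its targets *SOCS3* and *PIM1*. They were chosen by pathway, and the pathway was chosen because *IL11* and *PIM1* fell with abemaciclib in MDA-MB-231, so the values of that contrast are a description and carry no test. The study profiled 2 oestrogen receptor-negative breast cancer cell lines by 3′ RNA-seq, with 3 replicates in each of 8 groups. Cells of MDA-MB-231 and of MDA-MB-453 each received vehicle (DMSO), the CDK4/6 inhibitor abemaciclib at 500 nM, the oestrogen receptor degrader fulvestrant at 5 nM, or both agents (combination) for 5 days. The lines were grown in different media, so line and medium cannot be told apart.

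Cytokines of this family bind a private receptor chain and then the shared signalling chain gp130, which *IL6ST* encodes. JAK kinases bound to the receptor phosphorylate STAT3, which enters the nucleus and switches on target genes, among them its own inhibitor *SOCS3*. In breast cancer the pathway is known for inflammatory signalling, survival and, for *IL11*, the bone metastasis of MDA-MB-231 sublines. Protein and phosphorylation were not measured in these libraries, which count transcripts only.

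Library totals ran from 2873558 to 4158762 counts, and levels are given as counts per 1000000 counts of the library (CPM). Values from the same line share an estimate of spread, and a gene was called at an adjusted p below 0.05 over all genes tested. Mesenchymal markers (*VIM*, *CD44*, *FN1*, *CAV1* and *AXL*) summed to between 2432 and 3323 CPM in MDA-MB-231 and were at 0 counts in all 12 MDA-MB-453 libraries, and luminal markers summed to 310.2 to 463 CPM against 1746 to 2413 CPM. Leukocyte markers summed to at most 16.7 CPM in the first line and 0.292 CPM in the second, and endothelial markers to at most 2.47 and 0.601 CPM. Fibroblast markers summed to 1.55 to 7.88 CPM in the first line and 16.2 to 57.5 CPM in the second, where *COL1A1* carried the sum. Mitochondrial transcripts took 8.83% ± 0.21 (SD, n = 3) of counts in MDA-MB-231 with DMSO and 13.7% ± 0.32 with the combination, and in MDA-MB-453 15.2% ± 0.65 with DMSO, 23.8% ± 1.91 with abemaciclib and 21.2% ± 0.38 with the combination. Their part in the results was not tested, other than by leaving these transcripts out.

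The promoters of *IL11* and *PIM1* are shown because these 2 members fell most in MDA-MB-231. Each run holds the 250 bases before the RefSeq start (GRCh38.p14), 5′ to 3′ on the gene's strand, *IL11* at chr19:55370464-55370713 on the minus strand and *PIM1* at chr6:37169902-37170151 on the plus strand. Capitals mark a match to a searched motif.
IL11: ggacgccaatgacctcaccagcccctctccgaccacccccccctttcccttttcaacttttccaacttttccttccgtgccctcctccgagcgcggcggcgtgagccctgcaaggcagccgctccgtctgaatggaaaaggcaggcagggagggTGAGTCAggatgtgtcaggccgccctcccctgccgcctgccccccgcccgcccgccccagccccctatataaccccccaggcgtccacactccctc
PIM1: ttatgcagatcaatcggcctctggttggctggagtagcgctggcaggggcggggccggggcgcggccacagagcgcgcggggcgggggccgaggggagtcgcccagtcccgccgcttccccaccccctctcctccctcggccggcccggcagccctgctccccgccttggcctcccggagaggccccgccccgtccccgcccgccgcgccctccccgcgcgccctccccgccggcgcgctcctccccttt
The motifs searched on both strands were the STAT motif TTCNNNGAA, the AP-1 motif TGANTCA, the cell cycle homology region TTTGAA and the E2F motif GGCGGGAA. The *IL11* window held 1 match, TGAGTCA, at positions −96 to −90 from the start, and the *PIM1* window held none. Among the 9 members with a promoter in the table, the only other match was a STAT motif in the window of *LIFR*, at −165 to −157. Not every window adjoins the GENCODE gene start. The *SOCS3* window, 78360926 to 78361175, lies upstream of that gene's start at 78360077 on the minus strand. The bases directly before that *SOCS3* start were not searched. The windows of *LIFR* (38595406 to 38595655) and *IL6* (22726950 to 22727199) lie inside their gene intervals. The STAT motif was present in 6.57%, the AP-1 motif in 6.57%, the cell cycle homology region in 13.3% and the E2F motif in 2.72% of 35116 promoters. A match is a run of letters and not a measured binding site, and the absence of one covers these letters in this window.

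*IL11* encodes interleukin-11, and lies on chromosome 19 from 55364382 to 55370463 (GRCh38, GENCODE 44). In MDA-MB-231 with DMSO, its level was 49.4, 55.8 and 45.1 CPM in the 3 replicates. With abemaciclib it was 3.97, 4.86 and 2.74 CPM. With fulvestrant it was 56.9, 53.4 and 51.4 CPM, and with the combination 2.69, 3.85 and 0.773 CPM. All 6 libraries with abemaciclib lay below all 6 without it, whether or not fulvestrant was present, and the levels with DMSO and fulvestrant overlapped, as did those with abemaciclib and the combination. In bulk RNA, fewer expressing cells and less RNA per cell cannot be told apart.

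*PIM1*, a serine/threonine kinase that promotes survival and proliferation, lies on chromosome 6 from 37170152 to 37175428. It was measured at 18.0, 13.7 and 18.5 CPM with DMSO and 3.12, 3.34 and 1.92 CPM with abemaciclib in MDA-MB-231. It stood at 21.7, 17.6 and 20.5 CPM with fulvestrant and 4.04, 1.92 and 2.32 CPM with the combination. The libraries with and without abemaciclib again did not overlap.

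*SOCS3*, the feedback inhibitor of JAK signalling, lies on chromosome 17 from 78356778 to 78360077. Its levels in MDA-MB-231 were 86.9, 91.7 and 110.9 CPM with DMSO, 67.3, 51.0 and 80.0 CPM with abemaciclib, 92.7, 83.5 and 106.4 CPM with fulvestrant, and 43.9, 51.0 and 64.2 CPM with the combination. Each group with abemaciclib lay below each group without it, although the lowest fulvestrant library and the highest abemaciclib library were close.

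**Figure D1:**
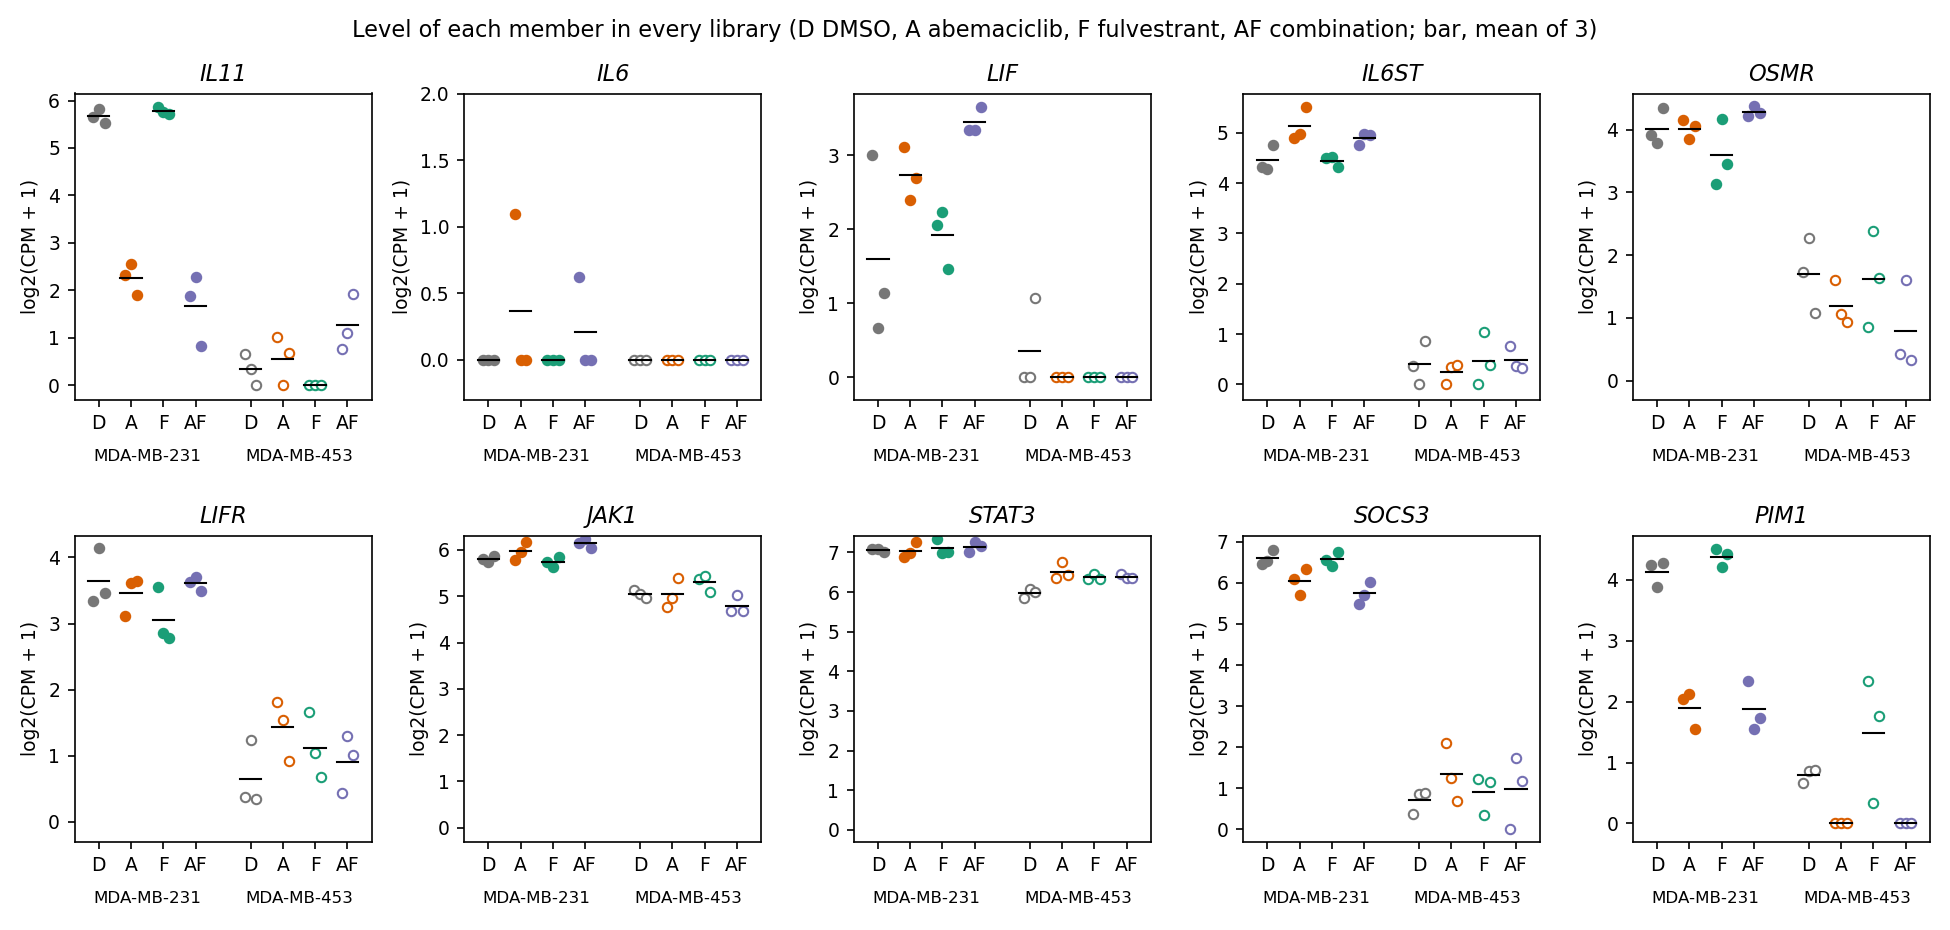
Level of each of the 10 genes in every library, as log2(CPM + 1), with filled points for MDA-MB-231, open points for MDA-MB-453 and a bar at the mean of 3 replicates. IL11 and PIM1 drop in both MDA-MB-231 groups that received abemaciclib, STAT3 stays between 117 and 162 CPM in that line, and most members are near 0 in MDA-MB-453.

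The contrast that chose the members, abemaciclib against DMSO in MDA-MB-231, gave log2 fold changes of −3.70 for *IL11*, −2.57 for *PIM1* and −0.54 for *SOCS3*, with 0.71 for *IL6ST* and 0.99 for *LIF*. The other 4 tested members lay between −0.24 and 0.18. In this contrast 33.7% of 11314 genes were called, 4 of the 9 tested members among them, and nothing is read from that count. The combination against DMSO, which uses the same DMSO libraries, gave −4.33 for *IL11*, −2.60 for *PIM1*, −0.87 for *SOCS3* and 1.76 for *LIF*, with 35.4% of all genes called.

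The combination against fulvestrant asks what abemaciclib does when fulvestrant is in both arms, and it uses none of the 6 libraries of abemaciclib against DMSO. The choice named a fall in MDA-MB-231 without naming a contrast and was read as abemaciclib against DMSO. If it also drew on the combination, the values that follow are a description too. *IL11* fell by 4.44 on the log2 scale (SE 0.28, adjusted p = 9.4e-17). *PIM1* fell by 2.86 (SE 0.35, adjusted p = 9.0e-09). *SOCS3* fell by 0.84 (SE 0.15, adjusted p = 2.0e-05). The libraries of the 2 groups did not overlap for any of the 3 genes.

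*LIF* encodes leukaemia inhibitory factor, a cytokine that signals through the pair of LIFR and gp130. Its level in MDA-MB-231 was 3.18, 3.69 and 1.75 CPM with fulvestrant and 9.16, 9.14 and 11.6 CPM with the combination. It rose where *IL11* fell, by 1.77 on the log2 scale (SE 0.52, adjusted p = 0.00619). With DMSO it was 7.01, 0.584 and 1.21 CPM, and with abemaciclib 7.66, 4.25 and 5.48 CPM. The first DMSO replicate lay inside the range of the abemaciclib group, and leaving it out moved the log2 fold change of abemaciclib against DMSO from 0.99 to 2.66.

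*IL6*, the cytokine that names the family, was at 0 counts in 22 of 24 libraries. The exceptions were 4 counts in the first abemaciclib replicate and 2 counts in the first combination replicate of MDA-MB-231. No change in *IL6* was detectable at this depth, and 3 counts over a group of 3 libraries correspond to 0.255 to 0.300 CPM.

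The receptor chains moved less. *IL6ST* was 21.7, 21.9 and 19.0 CPM with fulvestrant and 25.9, 30.5 and 29.9 CPM with the combination, groups that did not overlap, and its log2 fold change of 0.45 (SE 0.21) did not pass the test (adjusted p = 0.081). *OSMR*, the oncostatin M receptor, was 7.80, 17.0 and 9.94 CPM with fulvestrant and 17.5, 19.7 and 18.3 CPM with the combination. It passed narrowly, at 0.66 (SE 0.27, adjusted p = 0.0498), and 9 of 12 alternatives ended the call: DESeq2, no filter on low counts, a fit of the 6 libraries alone, the replicate block and the absence of any of 5 libraries. *LIFR* stood at 0.55 (SE 0.33, adjusted p = 0.20), and its 10.7 CPM in the first fulvestrant replicate lay within the combination group's 10.3 to 12.0 CPM.

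*JAK1*, the kinase bound to gp130, was 52.0, 48.9 and 56.1 CPM with fulvestrant and 70.1, 74.1 and 65.2 CPM with the combination in MDA-MB-231. It rose by 0.40 on the log2 scale (SE 0.14, adjusted p = 0.0206), a call that ended without fulvestrant replicate 2, combination replicate 1 or combination replicate 2. *STAT3* was 162, 126 and 129 CPM with fulvestrant and 128, 152 and 143 CPM with the combination. Its log2 fold change of 0.01 had a 95% interval of −0.22 to 0.25, so a change beyond that range was not measured, and the groups overlapped.

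In this contrast 36.1% of all genes were called, 17.6% higher and 18.5% lower, against 3 higher and 3 lower of the 9 members tested. *IL6* did not pass the filter on low counts. *OSMR* shares exon bases with *RICTOR*, and *JAK1* with *RAVER2*, on the opposite strand, as *LIF*, *LIFR*, *IL6* and *IL6ST* do with other annotated transcripts. *JAK1* also shares exon bases with *LINC01359* on its own strand, which a strand setting does not separate. The strand setting of the counting was not given in the sources used here, so those 6 values may include reads of the partner, whereas *IL11*, *STAT3*, *SOCS3* and *PIM1* share no exon bases with another gene.

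**Figure D2:**
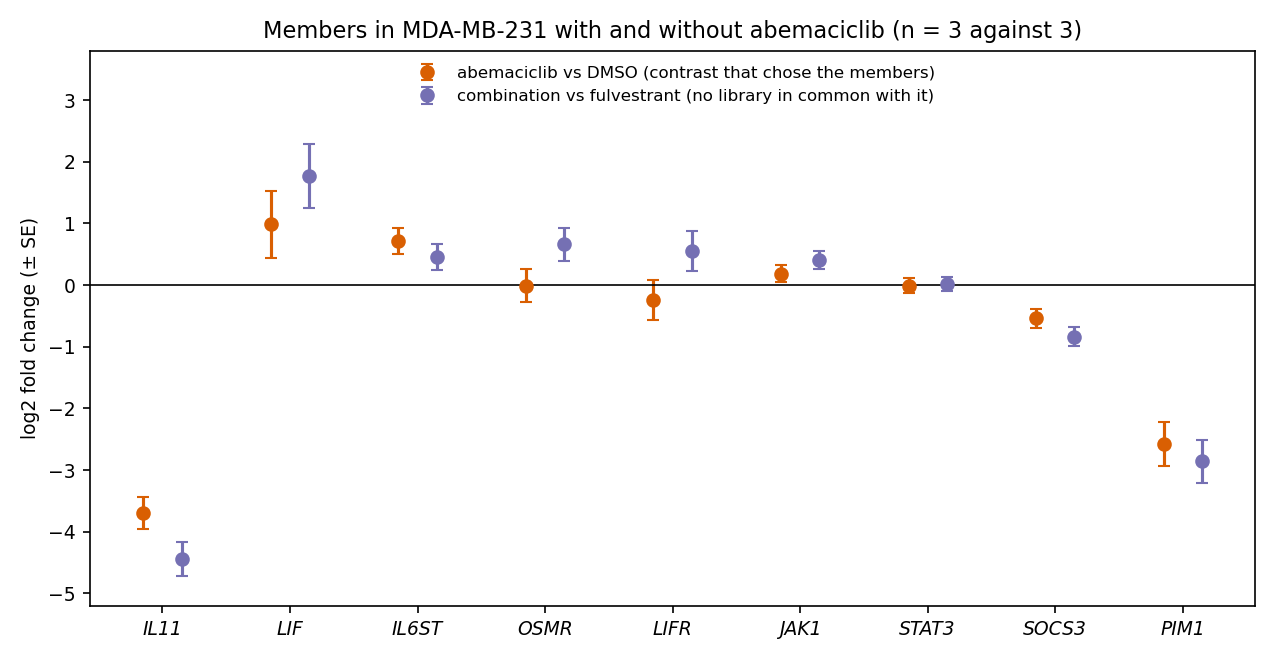
Log2 fold change with SE of 9 members in MDA-MB-231 for abemaciclib against DMSO (orange) and for the combination against fulvestrant (purple), 3 libraries per group. IL11 lies at −3.70 and −4.44, PIM1 at −2.57 and −2.86, and STAT3 at −0.01 and 0.01.

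Fulvestrant against DMSO in MDA-MB-231 asks for an effect of the degrader alone in cells whose *ESR1* level was at most 1.37 CPM. No gene was called by edgeR (0% of 11314 genes; 799 had an unadjusted p below 0.05) and none by DESeq2, while 205 were called without fulvestrant replicate 1. The members' log2 fold changes lay between −0.65 for *LIFR* and 0.26 for *PIM1*. The combination against abemaciclib called 3 genes (0.0265%) and no member, with *IL11* at −0.64 (95% interval −1.42 to 0.14) and *PIM1* at −0.03 (95% interval −0.90 to 0.84). Both contrasts share 3 libraries with the contrast that chose the members.

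MDA-MB-453 libraries were not used to choose the members, but the MDA-MB-231 DMSO libraries they are compared with here were. Between the DMSO groups, 69.8% of 12750 genes were called, with MDA-MB-453 the higher line for 34.3% and the lower for 35.6%, and for all 9 members tested it was the lower. Of these, 7 passed the filter on low counts only through their level in MDA-MB-231, so their direction was largely fixed by the filter and the count is no support. The differences of these 7 are a description and are given without a p-value. *IL11* was lower by 7.25 on the log2 scale (SE 0.50), with 2, 1 and 0 counts in the MDA-MB-453 replicates. *SOCS3*, at 1, 3 and 3 counts, had a log2 difference of −7.06 (SE 0.36). *IL6ST*, the shared signalling chain, was 18.9, 18.4 and 26.1 CPM in the MDA-MB-231 replicates, while those of MDA-MB-453 held 0.292, 0 and 0.831 CPM, a log2 difference of −5.63 (SE 0.49).

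Of the 7 family receptors tested between the DMSO groups, 2 were called higher in MDA-MB-453 and 5 lower, *LIFR* and *OSMR* among the lower. Over all genes the shares were 34.3% and 35.6%. The lower receptors include *IL6ST*, *LIFR* and *OSMR*, which passed the filter only through their level in MDA-MB-231, so this count is no support either. *LIFR* had a log2 difference of −4.06 (SE 0.56) and *OSMR* of −2.58 (SE 0.43). *PIM1* was lower by 4.35 (SE 0.56). *LIF* was at 0 in 11 of 12 MDA-MB-453 libraries, and its difference of −2.79 (SE 0.91) was no longer called without the first MDA-MB-231 DMSO replicate. The smallest differences were in the signal transducers, *STAT3* at −1.03 (SE 0.13, adjusted p = 6.8e-10) and *JAK1* at −0.71 (SE 0.16, adjusted p = 0.00015), which were also the 2 members to pass the filter on low counts within MDA-MB-453.

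**Figure D3:**
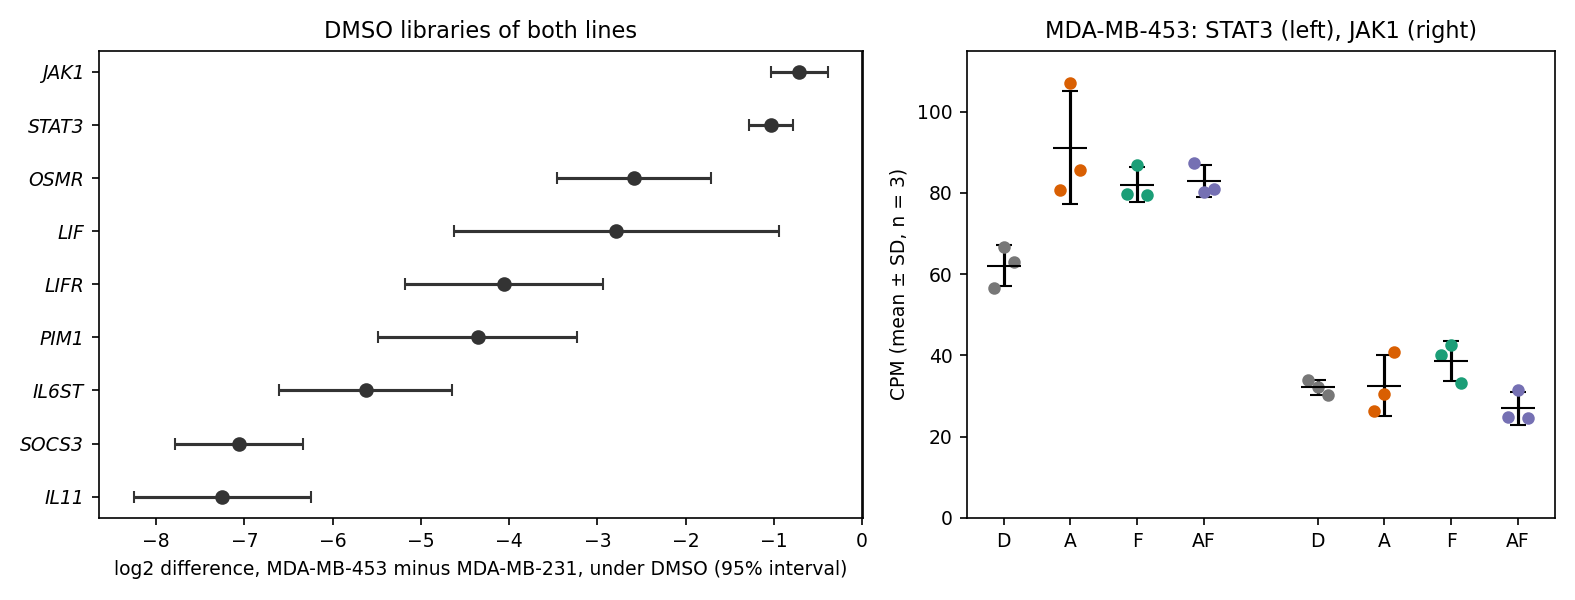
Left, log2 difference between the DMSO groups (MDA-MB-453 minus MDA-MB-231) with its 95% interval for 9 members, running from −7.25 for IL11 to −0.71 for JAK1. Right, STAT3 and JAK1 in MDA-MB-453 as CPM per library with mean and SD (n = 3; D DMSO, A abemaciclib, F fulvestrant, AF combination), where the 3 DMSO libraries are the lowest for STAT3.

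*STAT3*, on chromosome 17 from 42313324 to 42388540, rose with abemaciclib in MDA-MB-453. Its level was 56.7, 66.8 and 62.9 CPM with DMSO, 80.7, 107 and 85.7 CPM with abemaciclib, 79.7, 87.0 and 79.4 CPM with fulvestrant and 87.3, 80.2 and 80.9 CPM with the combination. The DMSO group lay below the other 3 groups without overlap, and those 3 groups overlapped one another. Against DMSO, the log2 fold change was 0.64 with abemaciclib (SE 0.13, adjusted p = 8.7e-05), 0.34 with fulvestrant (SE 0.13, adjusted p = 0.19) and 0.41 with the combination (SE 0.13, adjusted p = 0.011). The last call ended without the first DMSO replicate or the first combination replicate.

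Adding abemaciclib to fulvestrant gave *STAT3* a value of 0.06 on the log2 scale (SE 0.13, adjusted p = 0.74), and the combination against abemaciclib gave −0.23 (SE 0.13, adjusted p = 0.40). The interaction, the combination minus the sum of the single agents, was −0.57 for *STAT3* (SE 0.18). It was not called by edgeR (adjusted p = 0.062) and was called by DESeq2, without a filter on low counts, without abemaciclib replicate 1 and without fulvestrant replicate 3. Over all genes 3.8% had a called interaction.

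*JAK1* in MDA-MB-453 was 33.9, 32.3 and 30.2 CPM with DMSO, 26.3, 30.4 and 40.9 CPM with abemaciclib, 40.1, 42.6 and 33.1 CPM with fulvestrant and 24.7, 31.6 and 24.5 CPM with the combination. The combination lay below fulvestrant without overlap, by 0.47 on the log2 scale (log2 fold change −0.47, SE 0.19, adjusted p = 0.0464), and 7 of 12 alternatives ended the call: DESeq2, no filter on low counts, the replicate block and the absence of fulvestrant replicate 1 or 2 or combination replicate 1 or 3. Abemaciclib against DMSO gave 0.10 (SE 0.19, adjusted p = 0.73). The percentages of all genes called in this line were 36% for abemaciclib against DMSO (16.6% higher and 19.4% lower), 1.41% for fulvestrant against DMSO, 37.6% for the combination against DMSO, 36.6% for the combination against fulvestrant (17.2% higher and 19.4% lower) and 2.46% for the combination against abemaciclib. *STAT3* was the member called in 2 of these 5 contrasts and *JAK1* in 1.

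The other members were too low in MDA-MB-453 to pass the filter, and their counts are given as such. *PIM1* had 2, 3 and 3 counts with DMSO and 15, 1 and 8 counts with fulvestrant. It had 0 counts in all 6 libraries that received abemaciclib, against 32 counts in the 6 that did not. With 3 counts per group set in place of 0, *PIM1* was 2.73-fold lower with abemaciclib than with DMSO. It was 7.55-fold lower with the combination than with fulvestrant. These folds cover counting error in the group at 0 only. The counts of the other group were taken as exact, so the folds are no lower bound. Leaving out single libraries gave folds of 1.74 to 3.01 for the first comparison and 4.31 to 11.2 for the second. The lowest were without abemaciclib replicate 1 and without fulvestrant replicate 1. When low genes were kept in the fit, edgeR called the second (adjusted p = 0.0077) and not the first (adjusted p = 0.089).

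*IL11* in MDA-MB-453 was near 0 in every group. Beside the 2, 1 and 0 counts with DMSO, it had 4, 0 and 2 counts with abemaciclib, 0 in each fulvestrant replicate and 2, 4 and 11 counts with the combination. With 3 counts set for the fulvestrant group, the combination was 6.00-fold higher. Its own counts were taken as exact, so this fold is no lower bound. The rise was called by edgeR when low genes were kept (adjusted p = 0.023). The fold was 3.43 without combination replicate 3, which held 11 of the 17 counts, and ran from 3.43 to 7.36 without single libraries. *IL6* was at 0 counts in all 12 libraries, and *IL6ST*, *LIFR*, *SOCS3* and *OSMR* did not exceed 16 counts in any library.

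The difference between lines in the response to abemaciclib was tested under fulvestrant, by subtracting the MDA-MB-231 log2 fold change from the MDA-MB-453 one, and 18.1% of 12750 genes were called. *JAK1* differed by −0.87 (SE 0.23, adjusted p = 0.0042), rising in MDA-MB-231 and falling in MDA-MB-453. *IL11* was called as well, but it passed the filter only through its level in MDA-MB-231. Its MDA-MB-453 fulvestrant libraries all held 0 counts, so it could not fall in that line, and its fall in MDA-MB-231 chose the pathway. The direction was thus largely set in advance, and the difference is a description without a p-value. Its fitted size rests on a group at 0 and is no bound. *OSMR* differed by −2.01 (SE 0.74, adjusted p = 0.0485), a call lost without any of 8 libraries. It did not pass the filter within MDA-MB-453 and was tested through its level in MDA-MB-231. For *PIM1* the difference was not called (−3.11, SE 1.51, adjusted p = 0.16), nor for *STAT3* (0.05, 95% interval −0.30 to 0.40).

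The wider pathway was counted in 8 gene lists, in the combination against fulvestrant for MDA-MB-231 and in abemaciclib against DMSO for MDA-MB-453. Members are part of these lists, and *IL11*, *LIF*, *IL6ST*, *OSMR*, *STAT3*, *SOCS3* and *PIM1* are each in more than 1. Each list is read against the shares of all genes called, which for MDA-MB-231 were 17.6% higher with 18.5% lower, and for MDA-MB-453 16.6% with 19.4%. Of 11 family cytokines, 4 were tested in MDA-MB-231, where 2 were higher and 1 lower (median 0.91). The higher pair were *LIF* and *CTF1*, which encodes cardiotrophin-1 and went from 2.89, 9.09 and 7.89 CPM with fulvestrant to 8.62, 14.4 and 16.2 CPM with the combination (log2 fold change 0.97, SE 0.36, adjusted p = 0.029). None of the 11 cytokines passed the filter in MDA-MB-453.

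Of 8 receptors, 7 were tested in MDA-MB-231 and 1 was higher (median 0.30), beside 17.6% of all genes. In MDA-MB-453 3 were tested and 1 was lower (median −0.23), beside 19.4% of all genes, and 3 genes are too few to read against that share. The lower gene was the interleukin-27 receptor gene *IL27RA* (−2.27, SE 0.78, adjusted p = 0.020). *IL11RA*, the private receptor of interleukin-11, had a log2 fold change of 0.09 (SE 0.46) in MDA-MB-231. Of the 11 JAK kinases and STAT factors, 9 were tested in MDA-MB-231 with 2 higher and 0 lower (median 0.06), *JAK1* and *STAT6*, the interleukin-4 pathway factor (0.62, SE 0.16, adjusted p = 0.0016). In MDA-MB-453 7 were tested and 1, *STAT3*, was higher (median 0.31).

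Among 16 inhibitors of the pathway, 13 were tested in MDA-MB-231, with 2 higher and 2 lower (median −0.12), and 14 in MDA-MB-453, with 4 higher and 2 lower (median 0.02). Over all genes 17.6% were higher and 18.5% lower in the first line, near the shares of this list. In the second line 16.6% of all genes were higher and 19.4% lower, beside 4 and 2 of the 14. *PTPN2*, a phosphatase of JAK kinases and STAT factors, was lower in both lines, at −0.78 (SE 0.17, adjusted p = 0.00030) in MDA-MB-231 and −1.18 (SE 0.23, adjusted p = 5.4e-05) in MDA-MB-453. *SOCS7* was higher in both, at 0.44 (SE 0.17) and 0.54 (SE 0.15). *SOCS2* was lower in MDA-MB-453 at −1.24 (SE 0.30, adjusted p = 0.00093), from 18.1, 20.0 and 14.1 CPM to 8.10, 5.20 and 7.51 CPM.

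The list of 30 described STAT3 targets is given beside all genes, of which the combination raised 17.6% and lowered 18.5% in the first line, and abemaciclib 16.6% and 19.4% in the second. In MDA-MB-231, 24 were tested, of which 5 were higher and 6 lower (median 0.0050), and in MDA-MB-453 21 were tested, of which 8 were higher and 3 lower (median 0.42). The MDA-MB-453 genes counted as higher include *STAT3* itself, and the MDA-MB-231 counts include *OSMR*, *PIM1* and *SOCS3*. Higher in MDA-MB-231 were *CCND1*, which encodes cyclin D1 (0.83, SE 0.08, adjusted p = 1.0e-10), and *HIF1A*, the hypoxia factor (0.78, SE 0.12, adjusted p = 7.3e-07). *MCL1*, an anti-apoptotic BCL2 relative, was lower in MDA-MB-231 (−0.59, SE 0.10, adjusted p = 6.8e-06) and higher in MDA-MB-453 (0.85, SE 0.10, adjusted p = 2.1e-09), in contrasts that differ in the presence of fulvestrant. *BIRC5*, the mitotic protein survivin, was lower in both, at −0.88 (SE 0.11) and −5.68 (SE 0.25), and in MDA-MB-453 went from 91.5, 81.3 and 86.1 CPM to 2.02, 0.821 and 1.80 CPM. *JUNB*, *FOSL2* and *TIMP1* were among the others higher in MDA-MB-453, at 0.83 (SE 0.10), 0.95 (SE 0.17) and 0.90 (SE 0.15).

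All 3 PIM kinases were tested in MDA-MB-231, where 2 were lower (median −1.23), beside 18.5% of all genes. The 2 include *PIM1*, whose fall chose the pathway. *PIM3* went from 175, 184 and 199.9 CPM with fulvestrant to 80.3, 84.2 and 75.8 CPM with the combination (−1.23, SE 0.11, adjusted p = 5.6e-12). *PIM2* was not called (−0.28, SE 0.26, adjusted p = 0.44). In MDA-MB-453 *PIM2* and *PIM3* were tested and neither was called with abemaciclib against DMSO (median −0.25). With the combination against fulvestrant, the contrast used for MDA-MB-231, *PIM3* was called higher in MDA-MB-453, at 0.47, beside 17.2% of all genes.

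*IL11* is also a target of TGF-β and a gene described in bone metastasis of MDA-MB-231, and both lists were counted. Of 23 TGF-β response genes, 19 were tested in MDA-MB-231, with 3 higher and 8 lower (median −0.40), and 14 in MDA-MB-453, with 5 higher and 3 lower (median 0.51), where all genes gave 17.6% higher and 18.5% lower, and 16.6% and 19.4%. The MDA-MB-231 counts include the members *LIF*, among the higher, and *IL11*, among the lower. *CCN2*, a matricellular growth factor, fell from 483, 524 and 544 CPM to 106, 94.3 and 88.9 CPM (−2.44, SE 0.10, adjusted p = 2.8e-22). The BMP and TGF-β targets *ID1* and *ID3* were at −1.06 (SE 0.11) and −0.94 (SE 0.12). Against these, *FN1*, which encodes fibronectin, rose from 2.60, 3.69 and 6.72 CPM to 31.8, 41.6 and 35.3 CPM (3.04, SE 0.30, adjusted p = 6.0e-11), and *PMEPA1*, a TGF-β feedback inhibitor, rose by 1.64 (SE 0.17, adjusted p = 2.1e-10).

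In MDA-MB-453 *PMEPA1* was higher too (0.83, SE 0.08), with *BHLHE40* and *TPM1*, while *SMAD6* (−1.42, SE 0.30), *COL1A1* (−1.02, SE 0.20) and *ID1* (−0.72, SE 0.14) were lower. Of the 11 bone metastasis genes, 7 were tested in MDA-MB-231 with 0 higher and 5 lower (median −0.57), namely *IL11*, *CCN2*, *DUSP1*, *FGF5* and *SRGN*, the last 3 at −1.06 (SE 0.33), −0.57 (SE 0.13) and −0.54 (SE 0.10). Over all genes 18.5% were lower, and the count includes *IL11*, whose fall chose the members. In MDA-MB-453 3 were tested, with 1 higher and 1 lower (median −0.35). The higher gene was *DUSP1*, a MAP kinase phosphatase, at 1.18 (SE 0.29), and the lower was the chemokine receptor gene *CXCR4*, at −3.03 (SE 0.84).

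**Figure D4:**
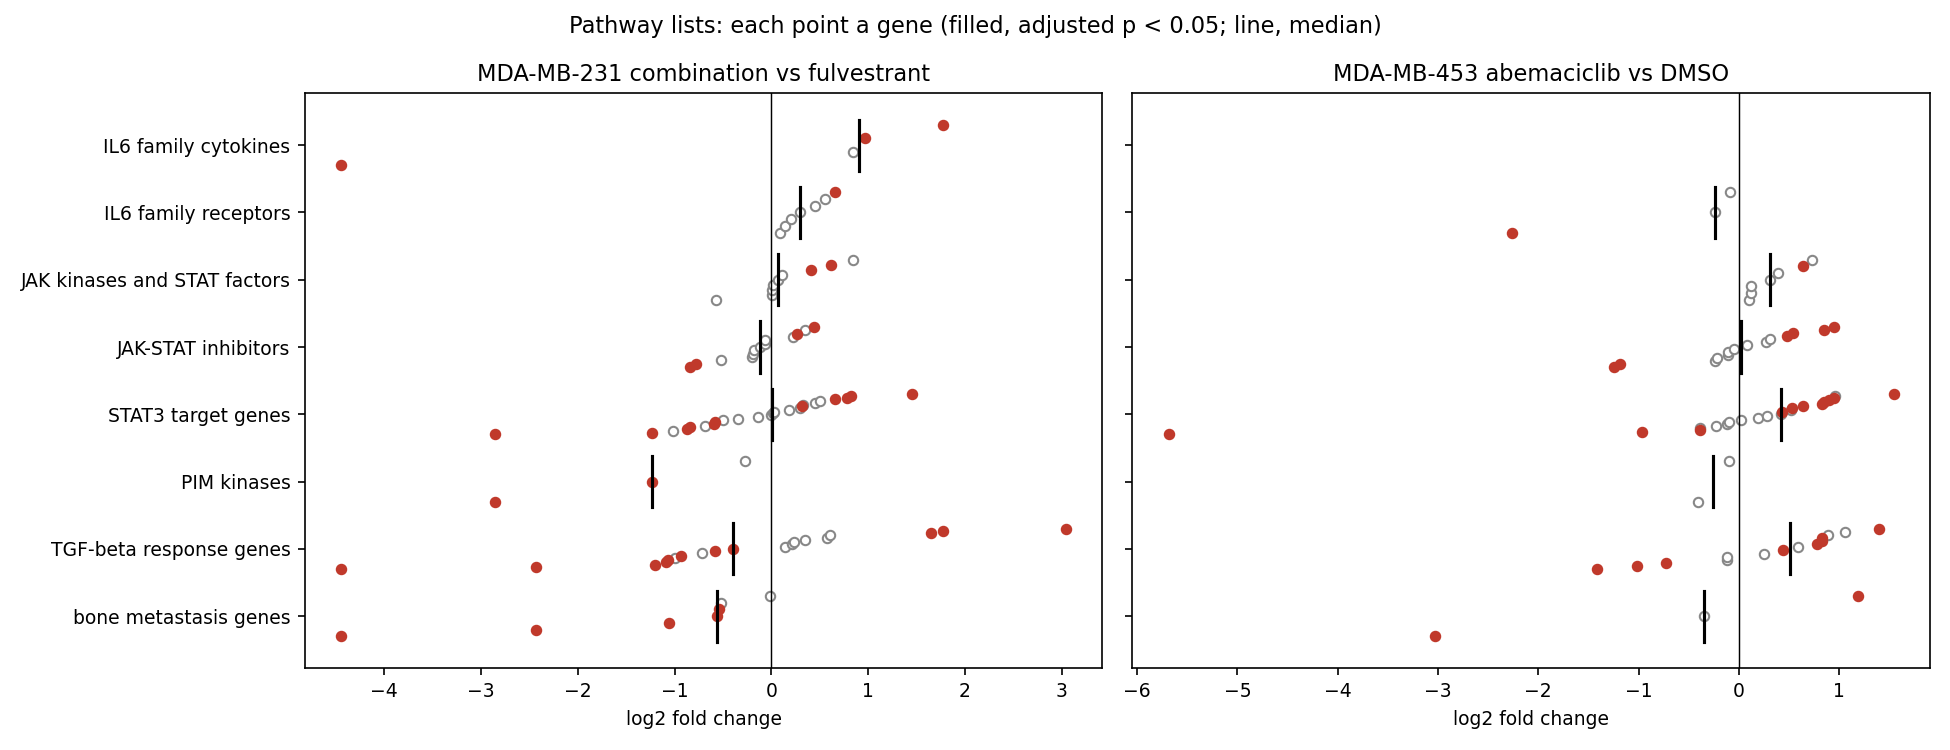
Log2 fold change of each tested gene in the 8 lists, for the combination against fulvestrant in MDA-MB-231 (left) and abemaciclib against DMSO in MDA-MB-453 (right), with filled points for genes called at an adjusted p below 0.05 and a line at the median. The PIM kinase and bone metastasis medians lie at −1.23 and −0.57 on the left, in lists that hold PIM1 and IL11, whose falls chose the pathway. Points of the STAT3 target list lie on both sides of 0 in both panels.

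The genes whose pattern over the 12 MDA-MB-231 libraries was most like that of *IL11*, by Pearson correlation of log2(CPM + 1) among 8030 genes, were *PPRC1* (r = 0.991), *DDX39A*, *NDC1*, *MCM7* and *SLC3A2* (r = 0.984). For *PIM1* they were *SPC25* (r = 0.993), *SNRPD1*, *SLC3A2*, *SF1* and *ADRM1* (r = 0.986). The libraries share the treatment groups, so the values describe these 12 libraries. *MCM7*, a subunit of the replicative helicase, was 245, 264 and 254 CPM with fulvestrant and 116, 101 and 93.8 CPM with the combination in MDA-MB-231. *SPC25*, a kinetochore protein, was 40.4, 31.3 and 34.5 CPM and 8.89, 5.05 and 7.47 CPM in the same groups, and like *PIM1* was at 0 in all 6 MDA-MB-453 libraries with abemaciclib. For *STAT3* in MDA-MB-453, the nearest of 7923 genes were *WASL* (r = 0.936), *PRDM2*, *KNOP1*, *SNAP29* and *SYNRG* (r = 0.927).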

How the data were processed

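The authors trimmed single-end 100 bp reads from 3′ libraries with BBDuk, used STAR for alignment to hg38 and counted reads per gene with featureCounts, and deposited 1 table of raw counts for 24 libraries. The strand setting, multi-mapped reads and duplicates were not given in the sources used here. An unnamed line of the table held 0 counts and was left out. CPM, counts per 1000000 counts of the library, were computed here. Library totals ran from 2873558 to 4158762 counts. Limits and folds set from 0 counts cover counting error in the group at 0 only, with the counts of the other group taken as exact. The 95% intervals of log2 fold changes come from the fitted SE and include the spread between replicates.

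From the deposited counts, edgeR 4.0.16 (R 4.3.3) was run with TMM scaling, filterByExpr and the quasi-likelihood test (two-sided) on the 12 libraries of a line, and on all 24 for comparisons between lines, with Benjamini-Hochberg adjustment over all genes tested. The SE is the log2 fold change divided by the root of its F statistic. DESeq2 1.42.0 was an alternative, with other scaling, no filter, the compared groups alone, mitochondrial genes left out, a replicate block and each library left out. The code was tested on simulated data. The replicates are described as independent.

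Members and gene lists were chosen with earlier results of these data known. Named genes were all members and, in each list, called genes with a mean of at least 10 CPM, up to 5 per direction in the 2 contrasts; *CTF1*, *IL11RA*, *IL27RA*, *CXCR4* and *PIM2* were named outside this rule, after their values were seen. Replicate numbers did not pair samples: deviations of samples with the same number correlated at −0.10 to 0.041 (MDA-MB-231) and between −0.078 and 0.042 for the other line. Likeness used TMM-scaled CPM plus 1. No protein sequences were used here.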

Additional observations from a re-analysis of the deposited data

Results flagged for a closer look

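The response to abemaciclib under fulvestrant was called different between the lines for 3 members, by an edgeR test of the difference itself over all 24 libraries. For *JAK1* the difference, MDA-MB-453 minus MDA-MB-231, was −0.87 on the log2 scale (adjusted p = 0.0042), with all 3 combination libraries above all 3 fulvestrant libraries in MDA-MB-231 and below them in MDA-MB-453. For *OSMR* it was −2.01 (adjusted p = 0.0485), a call kept in 9 of 18 alternatives, with adjusted p from 0.0067 to 0.33. *OSMR* did not pass the filter on low counts within MDA-MB-453 and was tested through its level in MDA-MB-231. With low genes kept, its change in MDA-MB-453 was −1.38 and was not called by edgeR (adjusted p = 0.32). For *IL11* the difference between lines was 10.04, a fitted value set against MDA-MB-453 fulvestrant libraries that all held 0 counts. *IL11* was tested only through its level in MDA-MB-231, where its fall chose the pathway, and it could not fall in MDA-MB-453. Its value is therefore a description and is given without a p-value. Line and culture medium cannot be told apart. Whether reads of *RAVER2* and *RICTOR* on the opposite strand enter the *JAK1* and *OSMR* values was not tested, nor was it for *LINC01359* on the strand of *JAK1*. A statistical test for an outlying value was not run on groups of 3 libraries.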

How the results depend on the processing

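The falls of *IL11*, *PIM1* and *SOCS3* and the rise of *LIF* in MDA-MB-231 with the combination against fulvestrant kept their direction and their call under every alternative run, as did the rise of *STAT3* with abemaciclib against DMSO in MDA-MB-453. In the latter line, the number of members called for the combination against fulvestrant (1, *JAK1*) became 0 with DESeq2, 0 with a replicate block and 2 without a filter on low counts (*IL11* and *PIM1*), and 0 to 1 without single libraries. For the combination against DMSO it was 0 to 2 without single libraries, and for the interaction (0) it was 1 with DESeq2, 1 without a filter and 0 to 1 without single libraries. Over all genes, fulvestrant against DMSO called 0 genes in MDA-MB-231 (14 without a filter, 0 to 205 without single libraries) and 156 in MDA-MB-453 (294 with DESeq2, 269 without a filter, 5 to 786 without single libraries). The combination against abemaciclib called 3 genes in MDA-MB-231 (55 with DESeq2, 5 with other size factors, 9 without mitochondrial genes, 49 without a filter, 30 in the 6 libraries alone, 0 to 96 without single libraries) and 273 in MDA-MB-453 (83 to 518 without single libraries). The interaction called 421 genes (191 to 873 without single libraries). The replicate block did not rest on a pairing of the samples.

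Values near 0 changed sign. For fulvestrant against DMSO in MDA-MB-231, the block gave log2 fold changes of 0.15 for *LIF* and 0.0055 for *IL6ST*, and leaving out single libraries gave −0.50 to 1.66 for *LIF*, −0.10 to 0.17 for *IL6ST*, −0.052 to 0.13 for *STAT3* and −0.12 to 0.087 for *SOCS3*. Without single libraries, *STAT3* ran from −0.054 to 0.13 for the combination against fulvestrant, *LIFR* from −0.022 to 0.24 and *PIM1* from −0.39 to 0.19 for the combination against abemaciclib, and *JAK1* in MDA-MB-453 from −0.12 to 0.26 for abemaciclib against DMSO. The difference between lines ran from −1.19 to 0.80 for *IL6ST* and from −0.062 to 0.12 for *STAT3*, which was −0.050 with mitochondrial genes left out. The causes were not tested. Without the first MDA-MB-231 DMSO replicate, *LIF* stood at 2.66 for abemaciclib and 3.42 for the combination against DMSO. Members at 0 to 16 counts in MDA-MB-453 are limited by depth.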
